A study of Mus musculus with 4 samples.

Results

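Genes switched on by the transcription factor p53 were followed in NIH-3T3 cells, an established mouse embryonic fibroblast line, exposed to the small molecules AR7, CA39 or CA77. The members are 10 well known p53 target genes, Cdkn1a, Mdm2, Ccng1, Trp53inp1, Bax, Bbc3, Phlda3, Zmat3, Sesn1 and Btg2, taken as every gene probe whose accession belongs to one of these symbols. They make up 10 of 36838 gene names on the array and are measured by 12 probes on 21 spots. Cdkn1a and Trp53inp1 have 2 probes each and the other 8 members have 1. All 21 spots were well above background on all 4 arrays and 0 were marked as faulty, so no member was lost to a filter on dim signal.

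The study asked how compounds that raise chaperone-mediated autophagy, the uptake of single proteins into lysosomes, act on gene expression. Confluent cultures in medium with serum were kept for 24 h with 20 µM AR7, 20 µM CA39 or 20 µM CA77, or received no treatment, and total RNA of each was read on a 1-colour Agilent array. The cells are labelled WT, with no further genotype or strain given. The compounds were dissolved in DMSO and the label of the control names none, so vehicle and compound cannot be told apart in a difference shared by all 3 treated cultures. There is 1 array per group and no replicate, so no test was run and every difference below compares 2 arrays.

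p53 is a stress-activated transcription factor that is kept scarce in resting cells by the ubiquitin ligase Mdm2, itself a p53 target, and that rises after DNA damage, nucleolar stress or oncogene activity. Its targets stop the cell cycle (Cdkn1a, Ccng1, Btg2), start apoptosis (Bax, Bbc3), restrain p53 or growth signalling (Mdm2, Phlda3), stabilise or destabilise other transcripts (Zmat3) or act in stress and nutrient control (Sesn1, Trp53inp1). NIH-3T3 cells are widely known to have kept p53 while having lost the Cdkn2a locus, whose product Arf blocks Mdm2.

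The promoter stretches below show exact matches to a 10-base half-site of the p53 motif, and a full motif is a pair of half-sites. Promoter windows in RefSeq (GRCm38.p6), each from 250 bases before to 50 bases after a transcription start, were matched for 8 of the 10 members. Trp53inp1 and Zmat3 had no entry, and 5 of the 8 held an exact half-site. Capitals mark that half-site. Its consensus is its own reverse complement, so each match stands on both strands.
Cdkn1a, plus strand, chr17:29090891-29090952: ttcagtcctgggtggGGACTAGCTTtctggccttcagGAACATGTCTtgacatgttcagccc
Ccng1, minus strand, chr11:40755447-40755486: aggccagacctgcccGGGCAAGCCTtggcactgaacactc
Bax, minus strand, chr7:45467075-45467114: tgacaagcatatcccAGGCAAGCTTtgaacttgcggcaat
Sesn1, plus strand, chr10:41887251-41887290: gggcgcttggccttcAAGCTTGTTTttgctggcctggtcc
Mdm2, minus strand, chr10:117710920-117710959: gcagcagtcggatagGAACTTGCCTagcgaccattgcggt

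The half-sites of Cdkn1a lay 73 and 51 bases before the start with a spacer of 12 bases. The others lay 185 (Ccng1), 201 (Bax), 173 (Sesn1) and 186 (Mdm2) bases before it. The 8 members had 12 windows in all, 5 of them with an exact half-site, and each distance is to the transcription start of the window shown. Over all 27025 genes with a window, 9.55% held at least 1 exact half-site. An exact pair with a spacer of up to 13 bases, as in Cdkn1a, was held by 20 genes, or 0.074%. Allowing 2 mismatches in a pair, 4 of the 8 members had one against 4.71% of all genes. For Mdm2 the best pair in its window had 4 mismatches and lay 51 bases before the start, apart from the half-site printed. Windows of Bbc3, Phlda3 and Btg2 held no exact half-site, which says only that these letters are not in these windows. p53 binding was not measured, so these letters describe the promoters and not occupied sites.

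All arrays lay on 1 slide. The untreated array was in row 1 and the treated arrays in row 2, and CA77 was read in scan 2 and the others in scan 1, so slide row cannot be told apart from treatment, nor scan 2 from CA77. Median net signal was 138 to 167.5 scanner units per array, and 52.2% to 69.7% of probes were well above background. Of 12 fibroblast markers 11 were detected on all arrays, with summed linear signals of 847002 (AR7) to 1287470 (CA39). Of 11 measured markers of other cell types, 5 were detected on all arrays (Krt5, Pecam1, Cdh5, Gfap and Myh6) and 3 on none (Cdh1, Alb and Adipoq), and that list summed to 1567 to 2009, highest with CA39. Of these markers 3 were past 1.5-fold with CA39 (37.5% of 8 compared, against 11.8% of all gene names). They were the neuronal Tubb3 (5.72 in untreated cells, 8.50 with CA39) and the epithelial Krt5 (7.88 and 8.48) and Epcam (7.53, detected with CA39 alone). With AR7 it was 1, the endothelial Cdh5 (7.09 and 7.70), or 14.3% of 7 compared against 6.51%. On the CA39 array 1 spot adjacent to Epcam and 7 adjacent to the fibroblast marker Pdgfra also deviated upward by at least 2-fold. A second probe of the astrocyte marker Gfap, detected with AR7 alone, read 5.05 in untreated cells and 7.75 with AR7. Among the fibroblast markers the log2 difference from untreated had a median of 0.54 after CA39, against -0.21 after AR7 and -0.14 after CA77, and the part of these marker shifts in the results below was not tested. In bulk RNA, fewer cells of a kind and less RNA per cell cannot be told apart.

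Signals below are background-corrected, quantile-normalized spot intensities on the log2 scale, where a difference of 1 is 2-fold. The only repeated measurements are probes printed 10 times on each array, and their spread gave a tolerance of 0.16 (log2) for a difference between 2 single spots, or 1.12-fold. It is 1 SD of such a difference, so a gene that did not change can lie outside it through spot error alone. It covers spot-to-spot error within an array and not the variation between cultures. Below a log2 signal of 9, where the second probes of Cdkn1a and Trp53inp1 lie, the tolerance was 0.19.

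The p53 targets differed from their untreated level by less than 2-fold with every compound. No member was past 2-fold with AR7 (0 of 10, against 3.06% of all gene names), with CA39 (0 of 10, against 5.29%) or with CA77 (0 of 10, against 3.22%). CA39 took 2 members past 1.5-fold (11.8% of all gene names), whereas AR7 (6.51%) and CA77 (7.79%) took 0. The 2 members with CA39 moved in opposite directions, Trp53inp1 upward (1 of 10, where 6.93% of all gene names were higher by that much) and Btg2 downward (1 of 10, against 4.9% lower). For AR7, CA39 and CA77 the median difference over the 10 members was 0.00, -0.11 and -0.02, against -0.03, -0.02 and -0.04 over all gene names. The 3 comparisons share the untreated array.

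**Figure D1:**
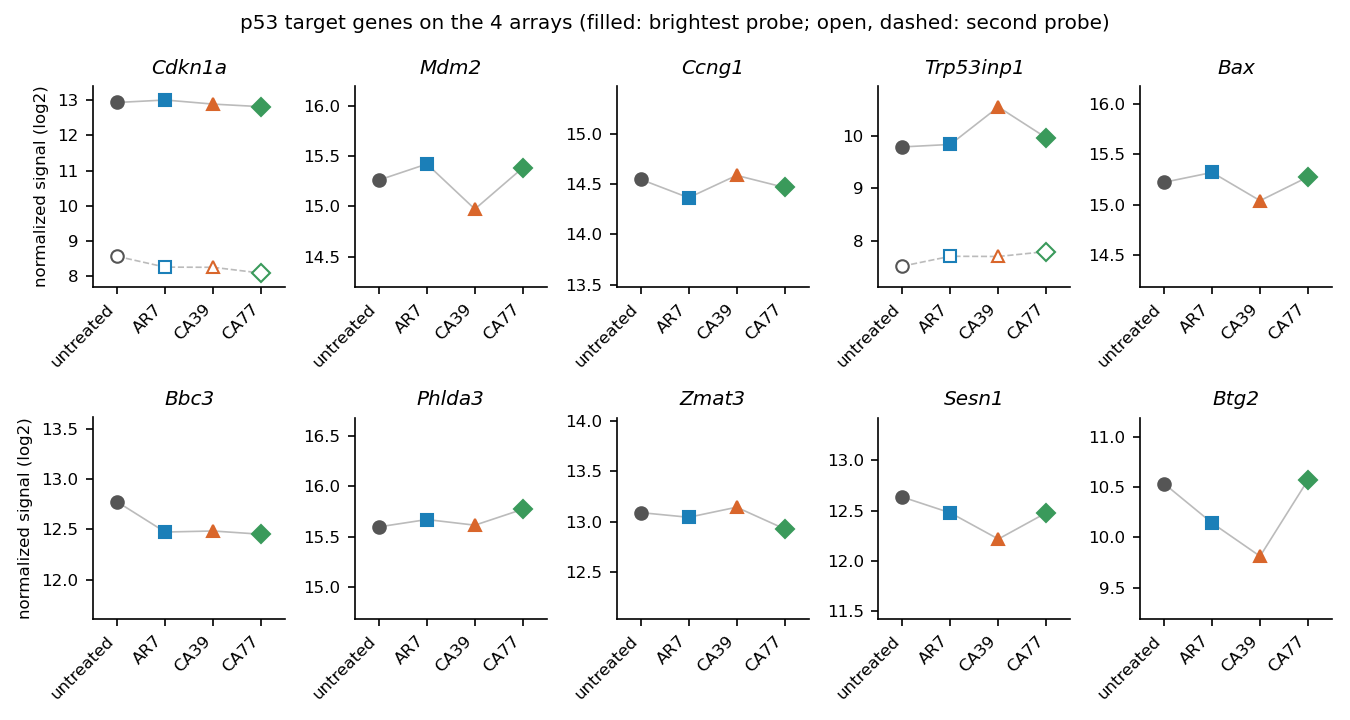
Normalized log2 signal (y axis, at least 2 log2 units per panel, with a scale of its own) of each p53 target gene on the untreated, AR7, CA39 and CA77 arrays (x axis). Filled symbols are the brightest probe and open symbols the second probe of Cdkn1a and Trp53inp1, each symbol being 1 array; CA39 stands highest for Trp53inp1 (10.55) and lowest for Btg2 (9.81).

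Counted against the smaller tolerance, 4 of 10 members lay outside it with AR7 (41.2% of all gene names did), 6 with CA39 (53.7%) and 4 with CA77 (49.8%). With AR7 the 4 were Mdm2, which just reached the limit from above, and Ccng1, Bbc3 and Btg2 below. With CA39 they were Trp53inp1 above and 5 members below, Mdm2, Bax, Bbc3, Sesn1 and Btg2 (32.8% of all gene names were lower by that much). With CA77 they were Trp53inp1 and Phlda3 above and Bbc3 and Zmat3 below. Bbc3 was the only member on this list for all 3 compounds. The limit is that of single spots, and Cdkn1a, whose value is a mean over 10 spots and so has a smaller spot error, is held to the same limit in these counts. The count of members above and below 0 was even with AR7 and CA77 (5 and 5 each), and with CA39 it was 4 above and 6 below.

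**Figure D2:**
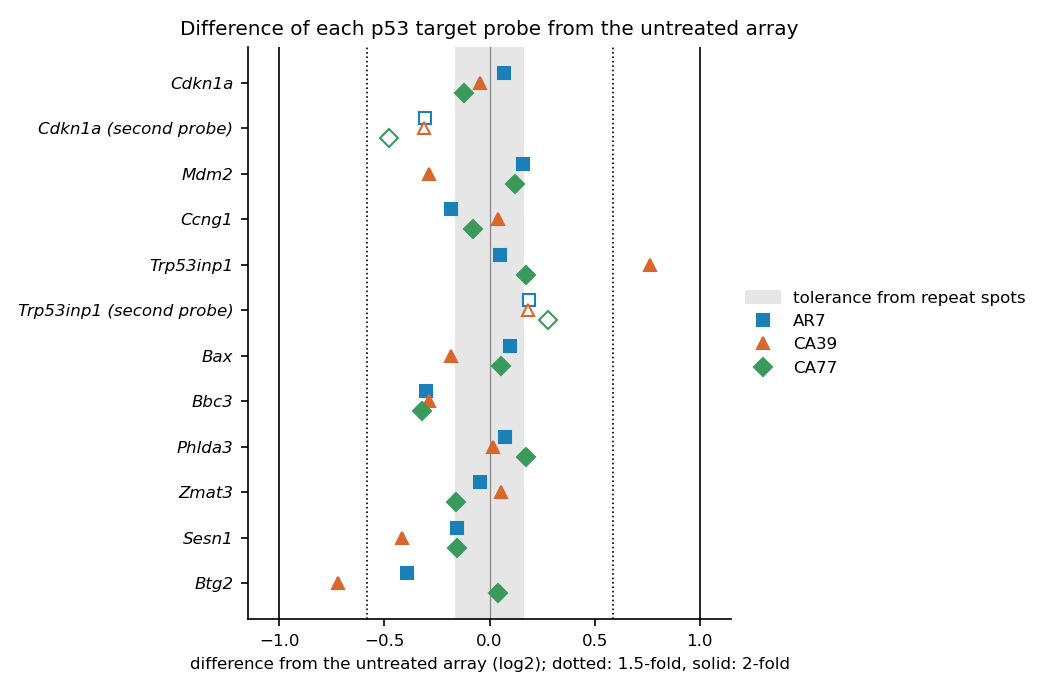
Log2 difference of each member probe from the untreated array (x axis) for AR7, CA39 and CA77, 1 row per probe, with the grey band at the tolerance of 0.16, dotted lines at 1.5-fold and solid lines at 2-fold. Each symbol compares 2 single arrays; all lie inside 2-fold, and only Trp53inp1 and Btg2 with CA39 lie outside 1.5-fold.

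Among the members that arrest the cell cycle, Cdkn1a encodes p21, the inhibitor of cyclin-dependent kinases through which p53 halts division. Its brightest probe gave log2 signals of 12.94 in untreated cells and 13.01, 12.90 and 12.82 after AR7, CA39 and CA77. AR7 was highest and CA77 lowest, and the whole range was 0.19. That probe was printed 10 times per array, so its spread within an array was measured directly, with SDs over the 10 spots of 0.07 in untreated cells and 0.09, 0.05 and 0.05 after AR7, CA39 and CA77. Taken position by position, the difference from untreated was 0.07 ± 0.07 (SD over 10 spots) for AR7, -0.05 ± 0.05 under CA39 and -0.12 ± 0.05 for CA77. AR7 was higher than untreated at 9 of 10 positions, CA39 lower at 9 of 10 and CA77 lower at 10 of 10. Spots of 1 array share 1 RNA sample and 1 hybridization, so these counts speak of the arrays and not of replicate cultures.

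**Figure D3:**
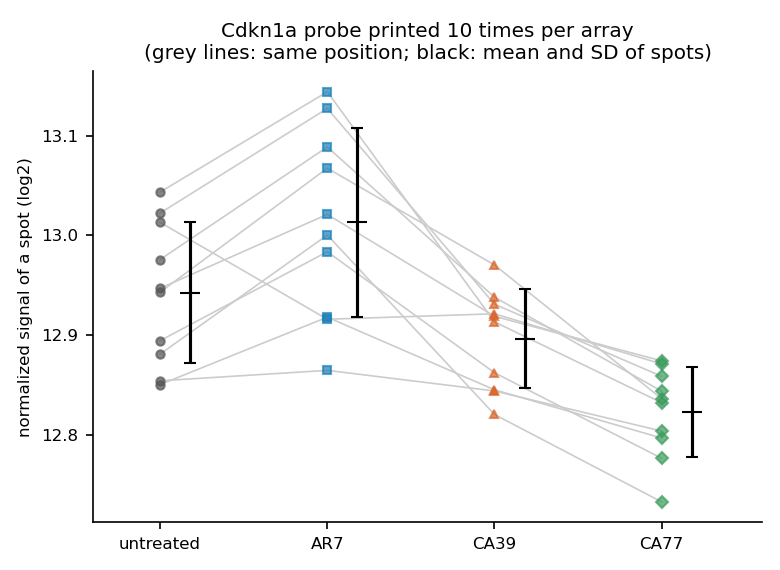
Normalized log2 signal (y axis) of the 10 spots of the main Cdkn1a probe on each array (x axis); grey lines join the same position and black bars give the mean and SD of the 10 spots. AR7 spots reach the highest values and all CA77 spots lie below their untreated partners, with the 4 means between 12.82 and 13.01.

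A second Cdkn1a probe, on 1 spot and assigned to another RefSeq transcript, was dimmer and did not follow the first. It read 8.55 in untreated cells and 8.24, 8.24 and 8.07 after AR7, CA39 and CA77, with differences of -0.31, -0.31 and -0.48. All 3 treated arrays were thus below untreated on this probe, outside the dim-signal tolerance, while the brighter probe was higher with AR7. With 1 spot per array it has no repeat.

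Ccng1, cyclin G1, which is known to bring a phosphatase to Mdm2, read 14.55 in untreated cells and 14.37, 14.59 and 14.47 after AR7, CA39 and CA77. Only its AR7 value, -0.18 from untreated, was outside the tolerance. Btg2, an antiproliferative protein that acts on mRNA deadenylation, varied more, with 10.53 in untreated cells and 10.14, 9.81 and 10.57 after AR7, CA39 and CA77. It fell with CA39 by 1.65-fold (log2 -0.72), differed by -0.39 with AR7 and by 0.04 with CA77. The untreated and CA77 arrays lay together for Btg2, with AR7 and then CA39 below them.

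Of the members that restrain p53 or growth signals, Mdm2, the ubiquitin ligase that marks p53 for destruction, read 15.26 in untreated cells and 15.42, 14.97 and 15.38 after AR7, CA39 and CA77. Its differences were 0.16, -0.29 and 0.12, so CA39 was the low array. Phlda3, a pleckstrin homology protein that competes with Akt for membrane lipids, read 15.60, 15.67, 15.61 and 15.77 in the same order of arrays. Its largest difference was 0.18, with CA77. Zmat3, a zinc finger protein that binds RNA, read 13.09, 13.04, 13.14 and 12.93, and only CA77, at -0.16, was at the edge of the tolerance.

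Bax and Bbc3 drive apoptosis at mitochondria, Bax as a pore-forming effector and Bbc3 (Puma) as a BH3-only activator. Bax read 15.22 in untreated cells and 15.32, 15.04 and 15.28 after AR7, CA39 and CA77, with differences of 0.10, -0.18 and 0.05. Its order over the arrays, CA39 lowest and AR7 highest, was also that of Mdm2. Bbc3 read 12.77 on untreated and 12.47, 12.48 and 12.45 with AR7, CA39 and CA77. The 3 treated arrays lay within 0.03 of each other and differed from untreated by -0.30, -0.29 and -0.32. This shared difference runs with slide row and with the DMSO vehicle, from which it cannot be told apart.

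Sesn1 and Trp53inp1 belong to stress and nutrient control. Sesn1, a sestrin that limits mTORC1 and oxidative stress, read 12.63 in untreated cells and 12.48, 12.22 and 12.48 after AR7, CA39 and CA77. It differed by -0.42 with CA39 and by -0.16 with AR7 and CA77. Trp53inp1, a nuclear and autophagosomal protein that helps p53 activate its targets, read 9.79 in untreated cells and 9.84, 10.55 and 9.97 after AR7, CA39 and CA77. It rose with CA39 by 1.70-fold (log2 0.76) and differed by 0.05 with AR7 and by 0.17 with CA77. CA39 was the single high array.

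The second Trp53inp1 probe did not show that rise. It read 7.52 in untreated cells and 7.70, 7.70 and 7.79 after AR7, CA39 and CA77, with differences of 0.19, 0.18 and 0.28. Averaging the 2 probes gave 0.47 with CA39, under 1.5-fold. The rise of Trp53inp1 rests on 1 spot of the brighter probe, and it was 0.72 after subtracting the median difference of neighbouring spots. Btg2 under the same subtraction was -0.67.

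**Figure D4:**
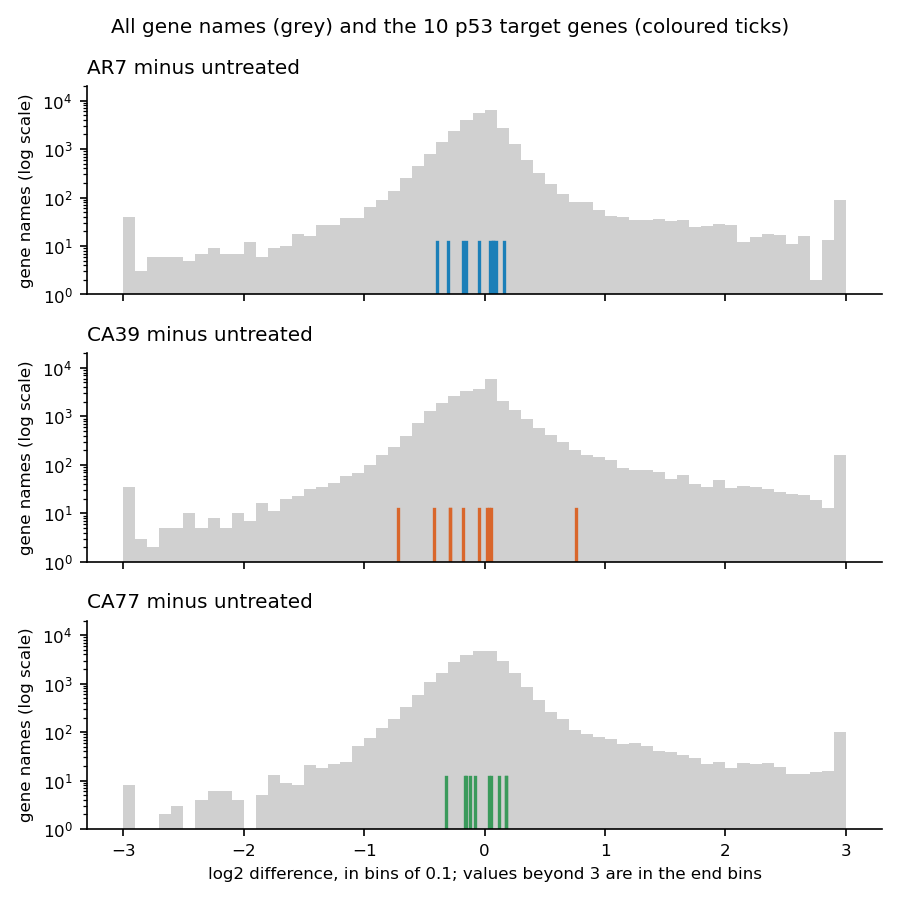
Number of gene names (y axis, log scale) by log2 difference from untreated (x axis, bins of 0.1) for AR7, CA39 and CA77, in grey, with the 10 members as coloured ticks whose height carries no value. The members run from -0.39 to 0.16 for AR7, from -0.72 to 0.76 for CA39 and from -0.32 to 0.18 for CA77.

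The compounds were given at the same dose and time, so 3 pairs could be compared directly. No member was past 2-fold between CA39 and AR7 (0 of 10, against 8.3% of all gene names), between CA39 and CA77 (0 of 10, against 7.48%) or between CA77 and AR7 (0 of 10, against 4.31%). Past 1.5-fold were 1 member for CA39 over AR7 (16.9% of all gene names), 2 for CA39 over CA77 (14.7%) and 0 for CA77 over AR7 (6.9%). Trp53inp1 was 0.72 higher with CA39 than with AR7 and 0.59 higher than with CA77. Its second probe gave -0.0035 and -0.093 for the same pairs, neither pair was past 1.5-fold with the probes averaged, and with the background offset of 50 the pair CA39 and CA77 was not either. Btg2 was lower with CA39 by 1.69-fold than with CA77 (log2 -0.76), and differed by -0.33 between CA39 and AR7. Mdm2 was next in size, at -0.45 for CA39 against AR7 and -0.41 for CA39 against CA77.

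AR7 and CA77 gave like values for most members. Outside the tolerance in that pair were 2 of 10 members, against 39.5% of all gene names. These were Btg2, 0.43 higher with CA77, and Cdkn1a, at -0.19 with CA77 lower at 10 of 10 spot positions. For CA39 against AR7 and for CA39 against CA77, 6 members each were outside the tolerance, against 61.4% and 56.3% of all gene names. With 1 array each, a small difference between compounds does not show that they act alike.

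Beside the members, 5 lists of related genes were read. The first held 30 further p53 targets, of which 27 could be compared with untreated. CA39 took 1 of them past 2-fold (3.7% of the list, against 5.29% of all gene names), and AR7 and CA77 took 0 (against 3.06% and 3.22%). Past 1.5-fold were 2 genes after AR7, 4 after CA39 and 0 after CA77 (7.41%, 14.8% and 0.0% of the list, against 6.51%, 11.8% and 7.79% of all gene names). Its medians were -0.05, -0.09 and 0.07.

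The gene past 2-fold was Fas, the death receptor, with 13.85 in untreated cells and 13.63, 10.44 and 13.92 after AR7, CA39 and CA77. After CA39 it fell by 3.41 on the log2 scale, with the other 3 arrays close together. Gadd45a, a stress protein of DNA repair and growth arrest, read 11.71, 11.88, 12.66 and 12.03 in the order untreated, AR7, CA39, CA77, and rose with CA39 by 0.95. CA39 was thus the lowest array for Fas and the highest for Gadd45a.

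Eda2r, a receptor of the TNF family, was 0.74 higher with CA39 than on untreated at a low signal, 7.08 against 6.34, and was not well above background with AR7. Its second probe, detected in untreated cells alone, read 6.13 there and 5.47 with CA39, and the difference was 0.37 with probes averaged and 0.50 with a background offset of 50, both under 1.5-fold, but 1.11 to 1.37 from the scanner's processed signal or the unscaled series table. Pidd1, which assembles a caspase-activating complex, differed by -0.68 with CA39. Past 1.5-fold with AR7 were Ephx1, an epoxide hydrolase, at 0.66, and Sfn, the 14-3-3 sigma protein, at -0.92. Ephx1 also read 0.44 with CA77 and -0.04 with CA39, and its second probe read 0.84, 0.63 and -0.09 for AR7, CA77 and CA39. Sfn was dim, 8.51 on untreated and 7.59 with AR7, and its AR7 value shrank to -0.19 when the scanner's processed signal was scaled to the 75th percentile. Under that scaling no gene of the list, Ephx1 included, was past 1.5-fold with AR7. Pmaip1 (Noxa) had no array well above background.

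The second list held p53 and 17 genes that regulate it. Trp53 itself read 10.49 in untreated cells and 10.80, 10.18 and 10.30 after AR7, CA39 and CA77, which is 0.31, -0.31 and -0.19 from untreated. Mdm4, the inhibitory partner of Mdm2, differed by 0.19, -0.22 and 0.30. For Trp53, AR7 was the high array, and for Mdm4 CA39 was the low one. The brightest Cdkn2a probe had no array well above background, and a second probe was so for untreated cells alone, at 5.63.

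Among these regulators AR7 and CA77 took 0 past 1.5-fold, against 6.51% and 7.79% of all gene names. CA39 took 2, of which 1 was past 2-fold. The CA39 counts are 11.8% and 5.88% of the list, against 11.8% and 5.29% of all gene names. The list medians were 0.05, -0.15 and -0.0017 in the order AR7, CA39, CA77. The 2 with CA39 were Sirt1, a deacetylase that acts on p53, and Trp63, a p53 relative. Sirt1 read 6.76 on untreated, 9.69 on CA39 and 6.67 on CA77, was not well above background with AR7, and rose with CA39 by 2.93. Trp63 differed by -0.64 on its brighter probe and by 2.06 on its dimmer one, so its direction with CA39 depends on the probe. The dimmer Trp63 probe was not well above background with AR7, and 1 adjacent spot on the CA39 array also deviated upward by at least 2-fold. A dimmer probe of Usp7 read -0.64 with CA39, where its brightest read 0.04.

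Genes that p53 is known to lower through p21 and the DREAM complex were read as the third list, 16 cell cycle genes detected on all arrays. The list medians stood at 0.03, -0.30 and -0.05 after AR7, CA39 and CA77. With CA39 all 16 were below untreated, 15 of them outside the tolerance (93.8%, where 32.8% of all gene names were lower by that much). Past 2-fold were 0 with each compound, against 3.06%, 5.29% and 3.22% of all gene names. Past 1.5-fold were 0, 1 and 0, or 6.25% of the list with CA39, against 6.51%, 11.8% and 7.79% of all gene names. That 1 gene was Ccnb2, cyclin B2, with 14.26 in untreated cells and 14.36, 13.32 and 14.24 after AR7, CA39 and CA77, a difference of -0.93. A dimmer probe of Cdk1 read -0.72 with CA39, where its brightest probe read -0.47 and another -0.14. With AR7 2 of the 16 were outside the tolerance and with CA77 3, or 12.5% and 18.8% against 41.2% and 49.8% of all gene names in either direction.

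**Figure D5:**
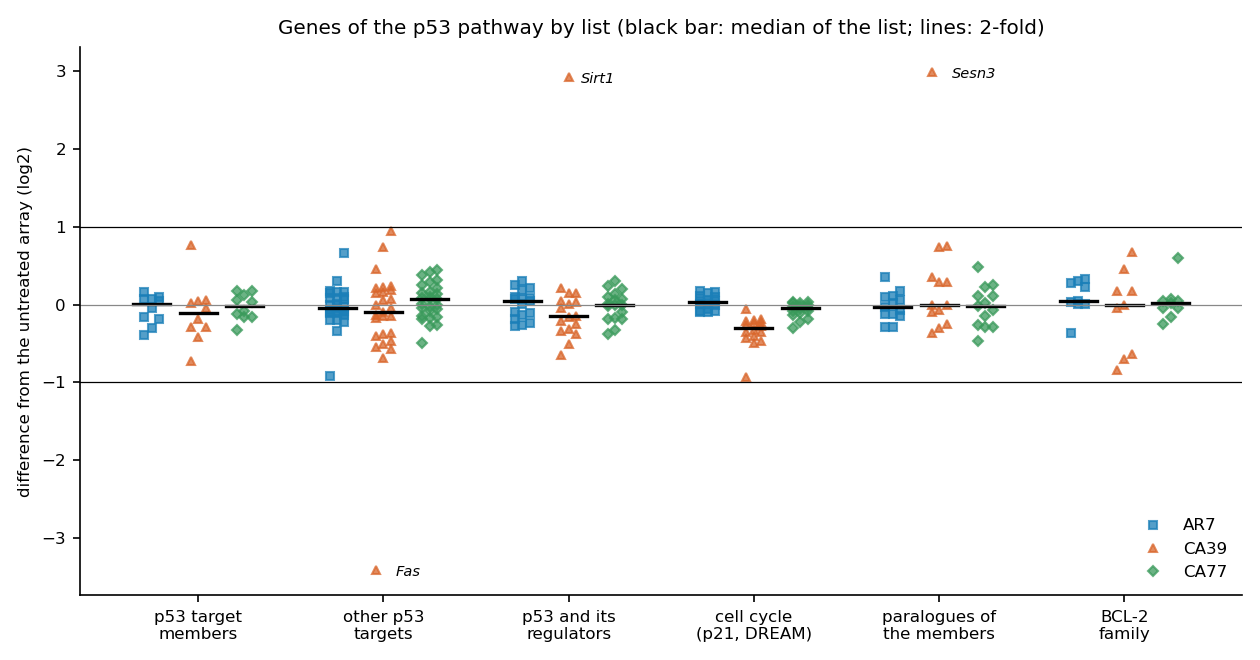
Log2 difference from untreated (y axis) of each gene, by list (x axis) and compound, with black bars at the list medians and lines at 2-fold; each symbol compares 2 single arrays. The members lie inside 2-fold, and Fas (-3.41), Sirt1 (2.93) and Sesn3 (2.99), all with CA39, are the genes outside it.

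The fourth list held 16 paralogues of the members, 13 of which could be compared with untreated. For AR7, CA39 and CA77 the list medians stood at -0.04, 0.00 and -0.02. Past 2-fold were 0, 1 and 0, or 7.69% of the list with CA39 against 5.29% of all gene names (3.06% with AR7 and 3.22% with CA77). Past 1.5-fold were 0, 3 and 0, or 23.1% of the list with CA39 against 11.8% of all gene names. The 3 were sister genes of members, and in each case higher with CA39.

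Sesn3, a sestrin, read 9.13 in untreated cells and 8.85, 12.12 and 8.85 after AR7, CA39 and CA77, and rose with CA39 by 2.99, where Sesn1 differed by -0.42. Trp53inp2 read 13.28, 13.13, 14.03 and 13.13 in the same order and rose with CA39 by 0.76, where the probes of Trp53inp1 differed by 0.76 and 0.18. Ccng2, cyclin G2, read 8.04, 7.91, 8.78 and 8.52, rose with CA39 by 0.74 and differed by 0.48 with CA77, where Ccng1 differed by 0.04 and -0.08.

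The fifth list held 11 members of the BCL-2 family other than Bax and Bbc3, with 9 compared. Medians were 0.05, -0.01 and 0.03 for AR7, CA39 and CA77. Past 2-fold were 0 with each compound, against 3.06%, 5.29% and 3.22% of all gene names. Past 1.5-fold were 0, 4 and 1. The shares of the list were 0.0%, 44.4% and 11.1%, against 6.51%, 11.8% and 7.79% of all gene names. A dimmer probe of Bcl2l2 read 0.82 with AR7, where its brightest read -0.36. With CA39, Bmf, a BH3-only protein, rose by 0.67. Bcl2, the founding survival protein, fell by 0.64, and Bid, a BH3-only protein cut by caspases, fell by 0.70. Bik was not well above background with CA39 and its difference of -0.84, measured against its own dim signal, became -0.51 with a stricter floor. With CA77, Bcl2l11 (Bim) was just past 1.5-fold at 0.60, with 7.89 on untreated and 8.49 on CA77, and under it at 0.45 to 0.54 with 75th percentile scaling, the offset, the unscaled series table or averaged probes.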

How the data were processed

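Total RNA was labelled with Cy3 and read on 4 Agilent arrays, 1 per group, and the authors extracted spots with Feature Extraction 10.7.3.1 (per the file headers). The deposited scanner values are linear spot intensities with local background. The deposited series table held the background-subtracted intensity at all 59305 gene-probe spots (equal within 0.0001 of the value, or of 1 for smaller values), unscaled and not on the log2 scale, and its medians were 90.6, 91.1, 84.1 and 76.0 (untreated, AR7, CA39, CA77). The submitters' processing notes name oligo and RMA. Authors' RMA values were not used here.

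Spot median intensity and background median were corrected with normexp (limma 3.58.1, R 4.3.3, no offset) in place of the mean, which was not used here, then quantile normalized without control spots and put on the log2 scale. Spots that the scanner software marked as uneven or as outliers of their population were dropped. Spots of a probe were averaged, and a gene took its probe with the highest mean. A probe counted as detected with over 50% of its spots well above background. Accessions were matched to RefSeq symbols (GRCm38.p6), naming 27512 probes by 20895 symbols. The array design cites another build, so probe positions are not printed.

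Calls past 2-fold or 1.5-fold used the log2 difference of 2 arrays for genes detected on at least 1 of them, with an undetected value raised to the lowest detected signal of its array where it lay under it. Where the higher of both values was undetected, the difference was taken as 0, which is the source of the paralogue median of 0.00 with CA39 (Zmat4). The tolerance is the square root of 2 times the median over the 4 arrays of the median SD of the detected probes among 399 printed 10 times (265 to 302 per array). Arrays give no depth, and their number limits the precision. The steps were tested on simulated data. Alternatives covered normalization, offset, floor, filters, probe choice, array position and the unscaled series table.

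The members, gene lists, naming rule and thresholds were chosen with earlier results of these data known. Named are all members with every probe and the genes of the other lists past 1.5-fold with any compound on any probe. Trp53, Mdm4, Cdkn2a, Pmaip1, Fas and Gadd45a are named in any case.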

Additional observations from a re-analysis of the deposited data

How the results depend on the processing

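All values rest on 1 array per group, so they carry no error between cultures. No paired analysis was possible because each group has 1 array. Of 10 alternatives, 4 (both other floors, detection on all arrays and no spot left out) left every member value as it was, since no member spot was dim or marked, and 9 of the 12 member counts were 0 to begin with. Averaging all probes of a gene gave 1 member past 1.5-fold with CA39 against untreated, 0 for CA39 against AR7 and 1 for CA39 against CA77, since the second Trp53inp1 probe differs. An offset of 50 also gave 1 for CA39 against CA77. With CA39 against untreated the member median ran from -0.20 with 75th percentile scaling to -0.05 after neighbour subtraction. The unscaled series table moved the member median to 0.11 for CA39 against CA77 and to -0.23 for CA77 against AR7. In the same table the median of all gene names was 0.13 and -0.21 in these comparisons and -0.18 for CA77 against untreated.

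Among the other p53 targets, 75th percentile scaling gave 0 past 1.5-fold with AR7, and quantile normalization of the processed signal and the series table gave 1. Past 2-fold with CA39 were 2 under these 3 settings, and past 1.5-fold with CA77 was 1 with 75th percentile scaling, the series table and no floor. Of the regulators past 1.5-fold, averaged probes gave 1 with AR7, and the series table gave 1 with CA77. The 1 with AR7 was Cdkn2a, at -0.77 from its probe detected in untreated cells alone. With CA39, quantile normalization of the processed signal, the series table, neighbour subtraction and genes detected on all 4 arrays gave 1, and the last gave 0 past 2-fold, since Sirt1 was not detected with AR7. With no spot left out, AR7 gave 1 cell cycle gene past 2-fold and 2 past 1.5-fold, and 75th percentile scaling gave 1 past 2-fold with CA39. For the BCL-2 family with CA77, 75th percentile scaling, the offset, the series table and averaged probes gave 0 past 1.5-fold and no floor gave 2, and the series table median was -0.14. Trp63 with CA39 turned from -0.64 to 0.71 when its probes were averaged. Where no reason is given, the cause was not tested. Over all settings Trp53inp1 with CA39 ranged from 0.47 to 0.83 and Btg2 with CA39 from -0.72 to -0.66. Bbc3 ranged from -0.37 to -0.25 with AR7, -0.35 to -0.23 with CA39 and -0.49 to -0.32 with CA77. Cdkn1a changed sign over the settings with AR7 (-0.12 to 0.14) and CA39 (-0.18 to 0.01), and stayed below untreated with CA77 (-0.30 to -0.11).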
